A study of Mus musculus with 12 samples.

Results

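The genes described are the core of the MHC class I antigen presentation pathway in mouse: the heavy chains H2-K1 and H2-D1, their light chain B2m, the peptide transporter subunits Tap1 and Tap2, the loading factor Tapbp (tapasin), and the immunoproteasome subunits Psmb8 and Psmb9. They were chosen by symbol, through the RefSeq transcripts that name the rows of the deposited table. Each of the 8 genes had 1 row among 23382, and all 8 passed the filter on low counts that left 15802 genes for testing. The study measured RNA from the hippocampus of mice of 4 groups, with 3 libraries each. Total RNA was depleted of ribosomal RNA and sequenced in paired ends, per the labels' protocols.

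All 4 groups were on a C57BL/6 background. Control vehicle and control THC mice carried no genotype entry in the labels and were placed as controls by their titles. Mutant vehicle and mutant THC mice were labelled as DISC1 mutants of the aDN-DISC1 line, and received vehicle or Δ9-tetrahydrocannabinol (THC), the psychoactive cannabinoid of cannabis, as did the controls. DISC1 encodes a scaffold protein that has been studied in psychiatric disease. The series title places THC in adolescence, calls the vulnerability astrocyte-specific, and names NF-kB, COX-2 and memory. The labels used here give no age, sex, dose, interval, promoter or driver of the mutant protein, and do not say whether mice were pooled. Where separate animals are not stated, p-values measure only the spread between these libraries, which may be technical.

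MHC class I molecules show peptides from inside the cell to CD8 T cells and natural killer cells. The proteasome cuts proteins into peptides, TAP carries these into the endoplasmic reticulum, and tapasin with its partners loads them onto a heavy chain paired with B2m. Interferons raise the whole set together and replace catalytic proteasome subunits by the immunoproteasome forms. In brain, microglia, endothelium and meningeal cells carry most class I, and neuronal class I has been linked to synapse remodelling.

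Of the 8 genes, 7 lie in or beside the MHC locus of chromosome 17 (GRCm38.p6, the assembly of mm10), so they are not independent loci. Tapbp (17, 33919478 to 33929290) is followed by H2-K1 (33996012 to 34000619). Psmb9 (34182030 to 34187330), Tap1 (34187556 to 34197225), Psmb8 (34198195 to 34201454) and Tap2 (34204479 to 34216321) form a block of 34292 bases, with gaps of 225, 969 and 3024 bases between neighbours. H2-D1 (35263094 to 35267497) lies 1046772 bases beyond Tap2. B2m is alone on chromosome 2 (122147687 to 122153082).

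Promoter windows are shown because these genes are known to share control elements. All 8 also had values on one side of 0 in 3 of the comparisons, which all use the mutant vehicle libraries and so are not independent. RefSeq windows for GRCm38.p6, from 250 bases before to 50 after the annotated start, were found for 7 of the 8 genes, all but Tap2. H2-K1 had 2 windows, for 2 annotated starts, and the first is the one shown and counted. The other (chr17:34000284-34000583) held matches to the same motifs. Both lie inside the span of the gene given above. Capitals mark matches, on either strand, to any of 5 short motifs: an interferon response core (TTTCNNTTT), a kappa-B-like motif (GGGNNTTCC), a STAT-like motif (TTCNNNGAA), a Y box (ATTGG) and an X2-like motif (TGACG). The windows of H2-K1 (chr17:34000298-34000597, minus strand), H2-D1 (chr17:35262844-35263143, plus strand), B2m (chr2:122147437-122147736, plus strand) and Tap1 (chr17:34187306-34187605, plus strand) read, 5′ to 3′:
H2-K1: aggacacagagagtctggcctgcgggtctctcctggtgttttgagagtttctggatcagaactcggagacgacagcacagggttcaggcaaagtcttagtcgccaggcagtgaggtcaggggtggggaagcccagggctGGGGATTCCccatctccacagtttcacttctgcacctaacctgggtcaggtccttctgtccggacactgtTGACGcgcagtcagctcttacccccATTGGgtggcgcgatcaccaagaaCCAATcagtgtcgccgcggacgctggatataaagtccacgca
H2-D1: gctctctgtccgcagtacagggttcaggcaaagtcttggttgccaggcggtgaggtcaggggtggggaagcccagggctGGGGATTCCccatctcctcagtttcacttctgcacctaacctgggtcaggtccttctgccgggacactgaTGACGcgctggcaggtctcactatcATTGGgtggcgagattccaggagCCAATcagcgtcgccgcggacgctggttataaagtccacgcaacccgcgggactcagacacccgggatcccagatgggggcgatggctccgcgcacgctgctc
B2m: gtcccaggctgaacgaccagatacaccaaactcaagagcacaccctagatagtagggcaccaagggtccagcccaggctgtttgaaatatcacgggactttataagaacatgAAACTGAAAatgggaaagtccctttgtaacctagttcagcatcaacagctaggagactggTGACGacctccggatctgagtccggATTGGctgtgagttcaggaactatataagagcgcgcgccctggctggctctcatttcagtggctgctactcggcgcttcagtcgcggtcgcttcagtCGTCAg
Tap1: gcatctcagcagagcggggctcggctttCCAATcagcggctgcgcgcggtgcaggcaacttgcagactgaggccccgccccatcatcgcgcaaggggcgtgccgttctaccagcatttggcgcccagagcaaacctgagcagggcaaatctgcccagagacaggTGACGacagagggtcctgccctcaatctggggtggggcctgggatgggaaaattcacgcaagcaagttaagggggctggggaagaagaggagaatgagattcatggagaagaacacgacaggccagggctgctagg

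The H2-K1 and H2-D1 windows were near copies, with 206 of 228 aligned bases identical (90.4%) and a longest shared run of 47 bases. That run held the only kappa-B-like match, GGGGATTCC, which no other of the 7 windows had and which 5.85% of 32544 RefSeq windows of this length had. In both windows the kappa-B-like match began 70 bases before an X2-like match, which in turn began 25 bases before a Y box. B2m had the same 25-base spacing of X2-like motif and Y box, and alone matched the interferon response core as written (10.5% of all windows). Only exact matches were counted, so a window without one can hold a close variant. The H2-K1 and H2-D1 windows hold tttcacttc, near the interferon response core, and B2m holds ggaaagtcc, near the kappa-B-like motif read in reverse. The Y box matched in 6 of 7 windows (37.4% of all windows), all but Psmb8, and the X2-like motif in 5 of 7 (20.9%), all but Psmb8 and Tapbp. Psmb8 alone had the STAT-like match (8.33%). Tap1 and Psmb9 are read in opposite directions from starts 225 bases apart, so their windows share 275 bases and their matches are the same letters. These matches describe the letters of each window, and whether a factor binds there was not measured.

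**Figure D1:**
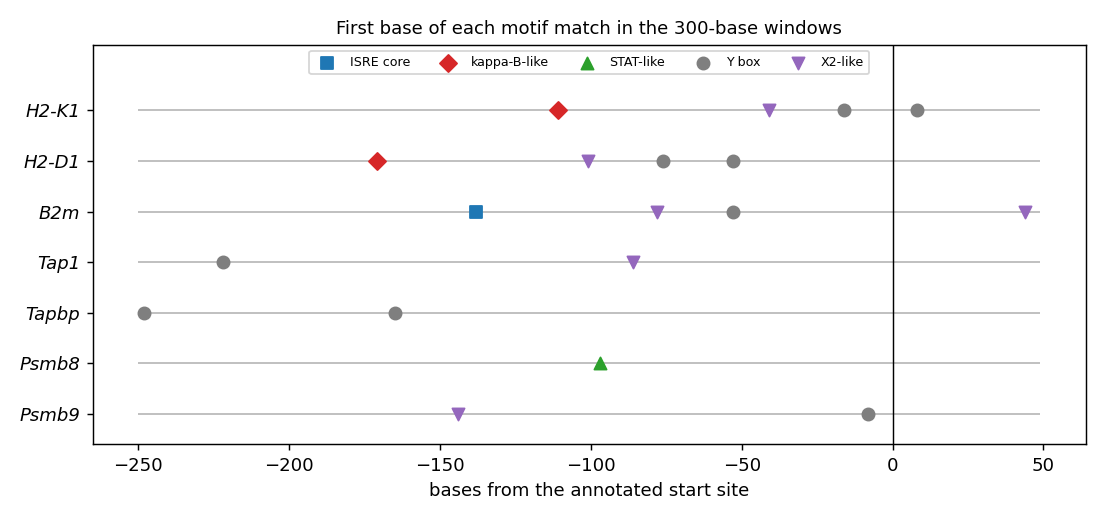
First base of each motif match in the 7 promoter windows, by distance in bases from the annotated start (horizontal axis), the first of 2 for H2-K1. H2-K1 and H2-D1 show the same order of kappa-B-like, X2-like and Y box matches, and Psmb8 has a STAT-like match only.

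Total expected counts were between 33165903 and 41389957 per library. Libraries differed in tissue content: Ttr, a choroid plexus gene, stood at 20.1 to 84.4 CPM (counts scaled to the same library size) in 6 libraries and at 2857 to 9979 CPM in the other 6. The low libraries were all 3 of control vehicle, control THC 1 and 3, and mutant THC 2. All 3 mutant vehicle libraries were high, so this split and genotype under vehicle cannot be told apart. Mutant THC 3 also had striatal RNA, with Drd2 at 52.1 CPM against 0.421 to 4.57 CPM in the other libraries. The library numbers in the sample descriptions were 6 to 11 for vehicle and 1 to 5 and 12 for THC, so number and treatment cannot be told apart either. The 12 hippocampal neuron markers were all measured, with summed levels of 3238 to 4245 CPM. The lowest sum, that of mutant THC 3, held Snap25 at 1367 and Syt1 at 1072 CPM, so sums say little of the lower markers. In mutant THC 3, Prox1 was at 30.8 and Neurod6 at 120 CPM, against up to 97.9 and 214 CPM in other libraries. Calb1 was higher there, at 193 CPM against up to 182 CPM.

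Per length of transcript, B2m was the most abundant of the 8 genes, at 76.1 ± 8.26 CPM per kilobase (SD over 12 libraries). H2-D1 (15.9 ± 1.92) and H2-K1 (15.8 ± 1.95) followed, then Tapbp (8.37 ± 1.15), Tap2 (2.65 ± 0.379), Psmb8 (2.21 ± 0.292), Tap1 (1.38 ± 0.182) and Psmb9 (0.719 ± 0.135 CPM per kilobase). Between neighbours in this order, H2-D1 and H2-K1 had overlapping ranges, with H2-D1 higher in 8 of 12 libraries, and so had Tap2 and Psmb8, with Tap2 higher in 10 of 12. The other neighbours kept their order in 12 of 12 libraries with no overlap of ranges. The immunoproteasome subunits were far below the constitutive subunits they replace. Psmb8 was at 2.05 ± 0.269% of Psmb5 and Psmb9 at 0.562 ± 0.116% of Psmb6, per length, while Psmb10, the remaining inducible catalytic subunit, was at 12.8 ± 1.02% of Psmb7. The counterpart subunits are named here for their role.

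**Figure D2:**
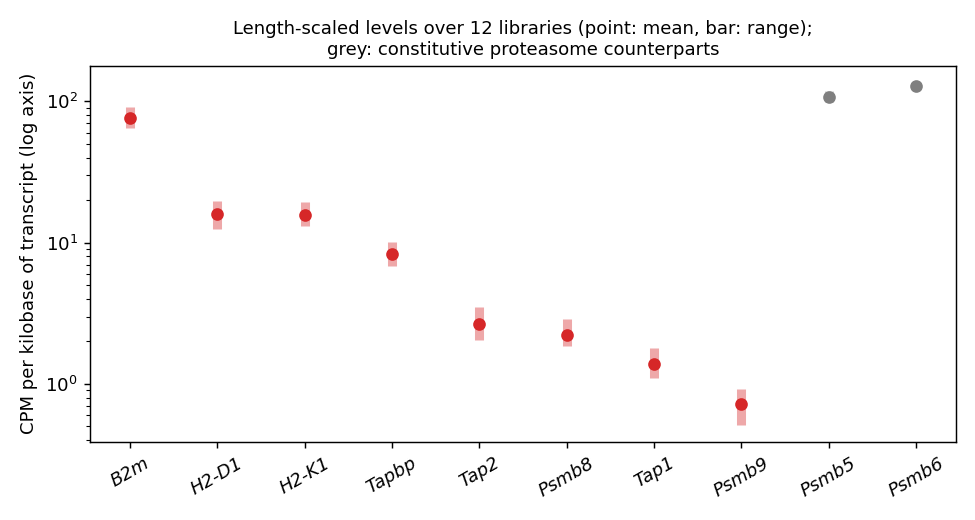
Mean level per kilobase of transcript (points) and range (bars) over the 12 libraries, on a log axis in CPM per kilobase, with the constitutive subunits Psmb5 and Psmb6 in grey. B2m leads at 76.1 and Psmb9 is lowest at 0.719 CPM per kilobase.

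The heavy chains and B2m are the class I molecule itself. H2-K1 was at 24.1, 22.7 and 21.2 CPM in control vehicle 1 to 3 and at 31.6, 27.5 and 30.2 CPM in mutant vehicle. Under THC it was at 24.3, 27.3 and 23.5 CPM in controls and at 26.1, 22.6 and 24.8 CPM in mutants. All 3 mutant vehicle libraries thus lay above the other 9, though mutant vehicle 2 exceeded control THC 2 by little. Reads of H2-K1 and H2-D1 can be shared with near-identical class I genes, and the deposited counts were not whole numbers in 3 of 12 libraries for H2-K1 and in 12 of 12 for H2-D1, so both are uncertain. Deposited counts were also not whole in 9 of 12 libraries for B2m and in 9 of 12 for Tapbp, which are uncertain to that extent.

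B2m was at 59.98, 55.9 and 58.3 CPM in control vehicle and at 75.9, 67.3 and 79.1 CPM in mutant vehicle. With THC it was at 61.8, 70.3 and 60.3 CPM in controls and at 66.7, 68.1 and 61.8 CPM in mutants. Every mutant vehicle library was above every control vehicle library, and control THC was above control vehicle without overlap. H2-D1 was at 32.1, 26.2 and 29.5 CPM in control vehicle, and at 41.2, 28.7 and 35.7 CPM in mutant vehicle. Control THC libraries of H2-D1 were at 34.8, 36.2 and 34.5 CPM and mutant THC libraries at 36.3, 33.3 and 31.9 CPM. Mutant vehicle was spread most for H2-D1, and its library 2 lay below control vehicle 1 and 3.

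Tap1 and Tap2 are the 2 chains of the transporter. Tap1 was at 3.26, 3.60 and 3.80 CPM in control vehicle and at 3.96, 4.997 and 3.96 CPM in mutant vehicle, and its THC libraries were at 3.57, 4.30 and 4.12 CPM in controls and 3.996, 3.64 and 3.05 CPM in mutants. Tap2 was at 9.29, 8.65 and 8.58 CPM in control vehicle and at 9.71, 10.3 and 12.1 CPM in mutant vehicle. Its THC libraries were at 7.97, 9.94 and 8.89 CPM in controls and at 8.71, 8.21 and 7.02 CPM in mutants. For both chains mutant vehicle lay above control vehicle without overlap, and for Tap2 also above mutant THC. Tapbp, which bridges TAP and the heavy chain, was at 20.9, 22.1 and 18.8 CPM in control vehicle and at 24.97, 26.96 and 27.5 CPM in mutant vehicle. Under THC, Tapbp was at 21.9, 26.4 and 20.8 CPM in controls and 25.6, 18.8 and 20.9 CPM in mutants, where THC 1 overlapped mutant vehicle.

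The immunoproteasome subunits had the fewest reads. Psmb8 was at 3.82, 3.04 and 3.36 CPM in control vehicle and at 4.70, 3.94 and 3.91 CPM in mutant vehicle, with THC libraries at 3.01, 3.17 and 3.73 CPM in controls and at 3.48, 3.33 and 3.67 CPM in mutants. All 3 mutant vehicle libraries of Psmb8 were above the other 9. Psmb9 was at 0.922, 0.806 and 0.698 CPM in control vehicle, and at 1.18, 1.19 and 0.913 CPM in mutant vehicle. Control THC libraries of Psmb9 were at 1.25, 1.01 and 0.813 CPM and mutant THC libraries at 0.991, 1.11 and 0.774 CPM, so all 4 groups overlapped. Psmb9 had only 27 to 45 counts per library, for which counting error alone is 16.6% of the mean, against 2.02% for B2m.

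**Figure D3:**
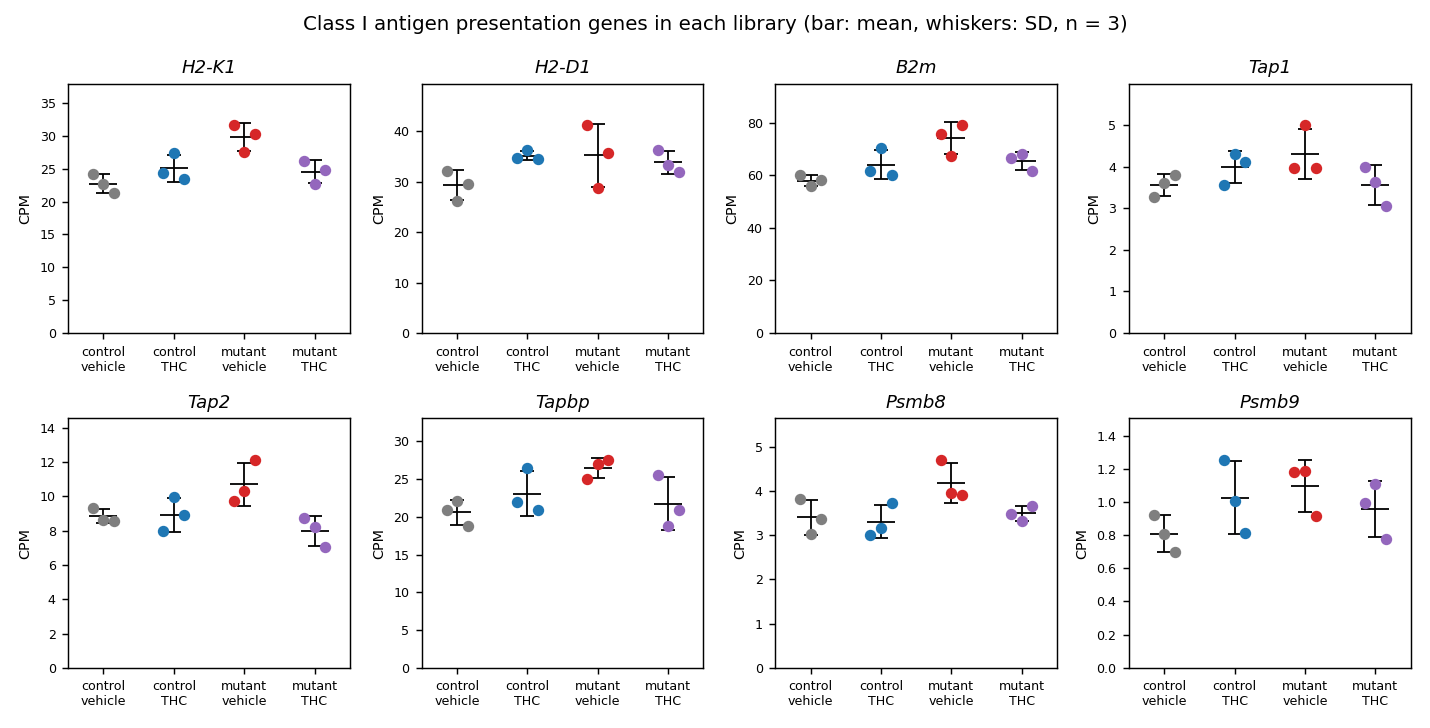
Level of each of the 8 genes in each library (points, CPM, axis from 0), with the group mean (bar) and SD (whiskers, n = 3). Mutant vehicle has the highest group mean for 7 of the 8 genes and H2-D1 has mutant vehicle and control THC level, both at 35.2 CPM.

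The comparison of genotype under vehicle asks what the mutation changed without THC. None of the 8 genes passed at an adjusted p of 0.05 by edgeR's quasi-likelihood test with Benjamini-Hochberg adjustment, where 0.00633% of all genes tested did. All 8 had values above 0, with log2 fold changes of mutant against control from 0.27 to 0.43 and a median of 0.32 (1.25-fold), and 48.9% of all genes were above 0. At an unadjusted p under 0.05, 6 of the 8 were higher, against 11.2% of all genes. In 6 of 8 the mutant libraries lay wholly above the control libraries, against 15.3% of all genes.

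H2-K1 had the smallest p of the 8 for genotype under vehicle, with a log2 fold change of 0.39 ± 0.085 (SE; edgeR adjusted p = 0.16). B2m was at 0.35 ± 0.077 (edgeR adjusted p = 0.16) and Tapbp at 0.36 ± 0.12 (edgeR adjusted p = 0.18). The transporter chains were level with each other, Tap1 at 0.28 ± 0.15 (edgeR adjusted p = 0.34) and Tap2 at 0.28 ± 0.12 (edgeR adjusted p = 0.26). Psmb9 had the largest and least precise value, 0.43 ± 0.23 (edgeR adjusted p = 0.34), and Psmb8 was at 0.30 ± 0.13 (edgeR adjusted p = 0.28). H2-D1 was at 0.27 ± 0.12 (edgeR adjusted p = 0.27), and this value was 0.14 without mutant vehicle 1 and 0.40 without mutant vehicle 2. Without mutant vehicle 2 Tap1 was at 0.16, and without mutant vehicle 3 Tap2 was at 0.18.

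The call on the class I molecule depended on the test. DESeq2 called H2-K1 (adjusted p = 0.00538) and B2m (adjusted p = 0.00632), and so did edgeR fitted on the 2 vehicle groups alone (adjusted p = 0.0403 and 0.0408). The 2 fits gave log2 fold changes of 0.39 and 0.40 for H2-K1. DESeq2 called 788 of the 15802 genes in all, 632 of them higher in mutants. The fit on 2 groups called 523 genes, 497 of them higher, against 1 by edgeR with all 4 groups. By limma-voom no gene was called, with an adjusted p of 0.16 for both H2-K1 and B2m. All these calls are on the comparison that cannot be told apart from the Ttr split.

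THC in mutant mice was compared with the same mutant vehicle libraries, so its values are not independent of those above. None of the 8 genes passed (edgeR adjusted p 0.81 to 0.94), and 0% of all genes did by edgeR. An unadjusted p under 0.05 was reached by 906 genes, and DESeq2 called 3 genes, none of them among the 8. All 8 had values below 0, from -0.42 to -0.057 with a median of -0.27 (0.831-fold), and 52.5% of all genes were below 0. Tap2 had the largest size, -0.42 ± 0.12, followed by Tapbp and H2-K1 at -0.28 ± 0.12 and -0.28 ± 0.084, and with B2m at -0.18 ± 0.077 these 4 had an unadjusted p under 0.05, against 3.20% of all genes in that direction. Mutant THC lay wholly below mutant vehicle for H2-K1, Tap2 and Psmb8, 3 of 8 against 4.40% of all genes. H2-D1 was nearest to 0, at -0.057 ± 0.12, and stood at 0.073 without mutant vehicle 1.

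In control mice THC gave no call among the 8 genes or among all genes by edgeR (0%; adjusted p for the 8 from 0.70 to 0.99). An unadjusted p under 0.05 was reached by 1106 genes, and DESeq2 called 12 genes, none of the 8. H2-D1 was the only one of the 8 at an unadjusted p under 0.05, with 0.27 ± 0.12 on the log2 scale, against 3.55% of all genes that were higher at that level. H2-D1 and B2m (0.14 ± 0.077) lay wholly above control vehicle, 2 of 8 against 8.30% of all genes. The values were above 0 for 7 of the 8 (50.1% of all genes), with a median of 0.15, and Psmb8 was at -0.044 ± 0.14. The median was 0.076 without control THC 2, the control library with high Ttr, and 0.074 with the low-Ttr control libraries alone.

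Under THC the genotypes could not be separated at this precision. The 8 values of mutant against control ran from -0.17 to 0.081, with a median of -0.071, 2 above 0 and 6 below, and 48.5% of all genes were below 0. None passed (edgeR adjusted p 0.64 to 0.91, where 0.00633% of all genes did), and none had an unadjusted p under 0.05 (8.98% of all genes) or groups without overlap (10.5%). The 95% intervals of the 8 lay between -0.60 and 0.40, and the vehicle median of 0.32 lay within those of Psmb8 and Psmb9 and above those of the other 6. That median has an error of its own, so its place is no test of a difference between vehicle and THC. The interaction below is that test, and none of the 8 passed it.

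The interaction asks whether THC acted differently in the mutants, and it uses all 4 groups. None of the 8 passed (edgeR adjusted p 0.66 to 0.84), nor did any gene by edgeR (0%), while 1041 genes had an unadjusted p under 0.05 and DESeq2 called 34 genes, none of the 8. All 8 values were below 0 (48.7% of all genes), from -0.53 for Psmb9 to -0.22 for Psmb8, with a median of -0.43. H2-K1 (-0.42 ± 0.12), B2m (-0.32 ± 0.11), Tap2 (-0.44 ± 0.17) and Tapbp (-0.45 ± 0.17) had an unadjusted p under 0.05, against 4.42% of all genes in that direction. The difference of the THC effect between genotypes was thus not past the threshold for any of the 8 genes. Cell type markers moved in this comparison too. Choroid plexus markers were below 0 in 15 of 15 (median -4.71) and border macrophage and dendritic cell markers in 14 of 14 (median -1.01). Ependymal markers were below 0 in 10 of 10 and mural and meningeal markers in 12 of 15. Striatal neuron markers were above 0 in 11 of 12. The part of these markers in the values of the 8 genes was not tested. Leaving out 1 library at a time gave medians from -0.49 to -0.35. Psmb9 was at -0.35 without control THC 1, and Psmb8 at -0.12 without control THC 3.

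**Figure D4:**
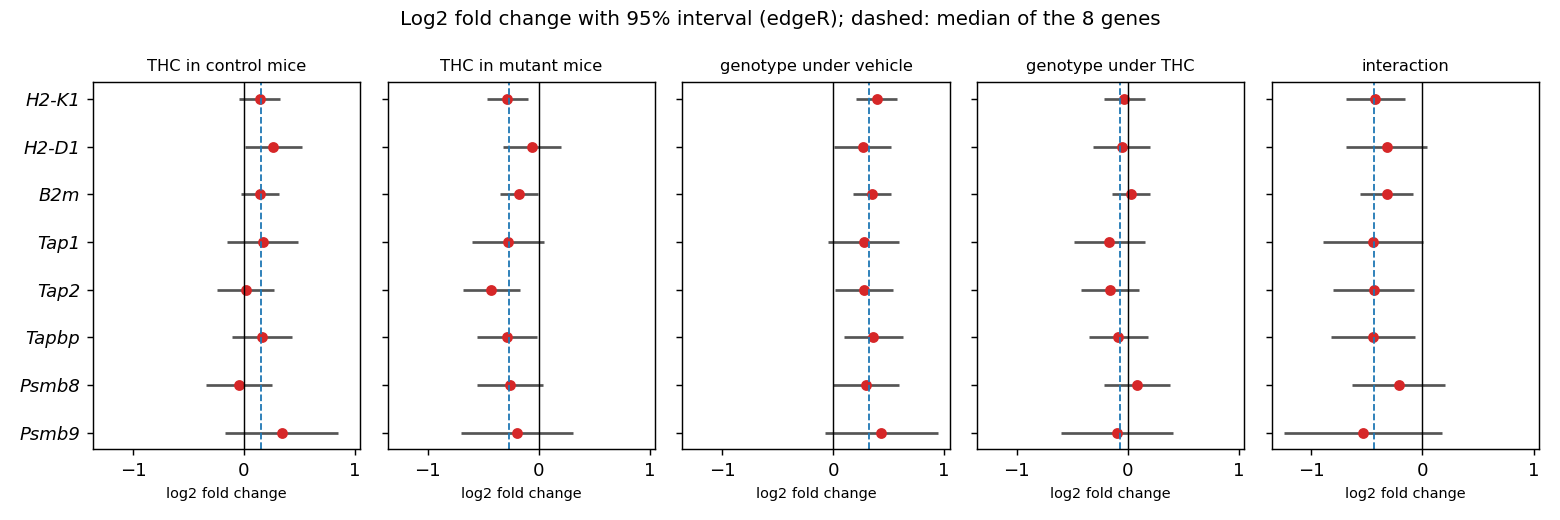
Log2 fold change of each of the 8 genes (points) with its 95% interval (lines) in the 5 comparisons, with the median of the 8 as a dashed line. The medians are 0.15, -0.27, 0.32, -0.071 and -0.43 from left to right.

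Levels of other cell type markers moved with these comparisons, and their part in the values of the 8 genes was not tested. For genotype under vehicle, 15 of 15 choroid plexus markers were above 0, and their summed level was 66.3 to 139 CPM in control vehicle, 99.9 to 5824 for control THC, 4020 to 11194 for mutant vehicle and 93.8 to 6982 CPM in mutant THC. Markers of border macrophages and dendritic cells, which include MHC class II genes, were above 0 in 13 of 14, with a median log2 fold change of 0.71, and for THC in mutants 14 of 14 were below 0, with a median of -0.81. Their summed level was 33.2 to 37.7 CPM in control vehicle libraries, 38.7 to 42.2 for control THC, 40.9 to 60.2 for mutant vehicle and 24.2 to 39.7 CPM in mutant THC. The summed level of mural and meningeal markers was 237 to 263 CPM in control vehicle and 305 to 343 CPM in control THC. It was 367 to 434 CPM in mutant vehicle and 230 to 381 CPM in mutant THC. For genotype under vehicle 11 of these 15 markers were above 0 and 4 below. Their log2 fold changes ran from -0.056 to 1.92 with a median of 0.39, so the summed level does not describe every marker. The sum joins mural with meningeal genes, so it cannot show whether the mural markers rose. Igf2 alone was at up to 114 CPM in the libraries other than mutant THC 3, so single genes weigh on the sum. For THC in mutants 3 of the 15 were above 0 and 12 below, with a median of -0.52. No marker of these lists was at 0 in all libraries.

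For THC in mutants 15 of 15 choroid plexus markers were below 0, with a median of -1.01 (log2). Ependymal markers were above 0 in 10 of 10 for genotype under vehicle (median 1.41) and below 0 in 10 of 10 for THC in mutants (median -0.42), with summed levels of 21.5 to 49.97 CPM in control vehicle, 31.0 to 71.6 for control THC, 46.8 to 131 for mutant vehicle and 51.6 to 76.1 CPM in mutant THC. Striatal neuron markers were above 0 in 12 of 12 in both comparisons (medians 1.34 and 2.45), and summed to 90.8 to 94.4 CPM in control vehicle, 85.99 to 115 for control THC, 101 to 403 for mutant vehicle and 101 to 3183 CPM in mutant THC. The upper ends were single libraries, mutant vehicle 3 at 403 CPM and mutant THC 3 at 3183 CPM. The remaining mutant libraries were at 101 to 126 CPM. Hippocampal neuron markers were below 0 in 10 of 12 for genotype under vehicle, with a median of -0.17.

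Microglia markers, from the most numerous class I-bearing immune cell of the brain, summed to 536 to 647 CPM in control vehicle and 609 to 648 CPM in mutant vehicle. They were above 0 in 11 of 13 for genotype under vehicle (median 0.11) and in 10 of 13 for THC in mutants (median 0.014). For genotype under THC 13 of 13 were above 0, with a median of 0.18. Endothelial markers had medians of -0.020 and 0.13 and astrocyte markers 0.090 and -0.059 for genotype under vehicle and THC in mutants. Blood markers were above 0 in 9 of 9 for genotype under vehicle, with a median of 0.79, and oligodendrocyte markers in 11 of 11, with a median of 0.37. Of the T and natural killer cell markers 3 of 11 in the table were tested and 8 were under 0.1 CPM, and Cd8a had at most 6 counts in a library. In bulk tissue, fewer cells of a type and less RNA per cell cannot be told apart.

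Within the 6 libraries of high Ttr, the 8 values for THC in mutants were all below 0, with a median of -0.21 over 3 vehicle and 2 THC libraries. The choroid plexus levels still differed within these libraries, and mutant THC 3 is among them. Genotype under THC had a median of -0.16 in the high-Ttr libraries, with 1 control library, and of -0.042 in the low-Ttr libraries, with 1 mutant library.

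The rest of the pathway was described from lists of genes by role, and no gene of these lists passed by edgeR with all 4 groups in the 5 comparisons. Other tools were not counted over the lists. The table held 22 other class I and class I-like heavy chains, of which 13 were tested. For genotype under vehicle 8 were above 0 (48.9% of all genes) and 5 below, with a median of 0.14. The smallest p-values were those of Mr1, which presents vitamin metabolites, and Hfe, an iron-regulating class I-like protein. Mr1 was at 4.31 ± 0.605 CPM in control vehicle and 9.31 ± 2.14 CPM in mutant vehicle, and Hfe at 4.68 ± 0.982 and 12.2 ± 2.49 CPM (edgeR adjusted p = 0.16 each, n = 3). H2-Q4, at 14.8 ± 3.41 CPM per kilobase over the 12 libraries, was near H2-K1 in level. Its mean was lower in mutant vehicle, at 23.1 ± 0.532 CPM against 29.6 ± 8.11 CPM in control vehicle (n = 3). For THC in mutants this list had a median of -0.11, led by H2-M3 (-0.54 ± 0.19) and Fcgrt, the neonatal Fc receptor (-0.22 ± 0.091), both at an edgeR adjusted p of 0.81. The median was 0.073 for THC in controls, -0.011 for genotype under THC and -0.34 for the interaction.

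All 13 other peptide loading and trimming genes were tested. For genotype under vehicle 11 were above 0 (48.9% of all genes), with a median of 0.13. Of these, 5 had an unadjusted p under 0.05, against 11.2% of all genes that were higher at that level. Erap1, which trims peptides in the endoplasmic reticulum, was at 15.7 ± 0.483 CPM in control vehicle and 21.3 ± 1.56 CPM in mutant vehicle, and Pdia3, the loading complex's oxidoreductase, at 116.9 ± 10.8 and 160.2 ± 22.3 CPM (edgeR adjusted p = 0.16 each, n = 3). For THC in mutants the list was split, 8 above and 5 below 0 with a median of 0.012. Erap1 was at -0.23 ± 0.090 and the chaperone Calr at 0.22 ± 0.077 on the log2 scale (edgeR adjusted p = 0.81 each). Medians were 0.090 for THC in controls, 0.11 for genotype under THC and -0.051 for the interaction.

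Constitutive proteasome genes stayed close to 0. All 17 were tested, none had an unadjusted p under 0.05 in any of the 5 comparisons, and their medians ran from -0.023 to 0.027. For genotype under vehicle their values lay between -0.060 and 0.090, below the 0.30 ± 0.13 of Psmb8. The 3 other interferon-inducible proteasome genes had a median of 0.14 for genotype under vehicle and of -0.13 for THC in mutants. Psme2, a subunit of the proteasome activator, was at 19.1 ± 0.642 CPM in control vehicle and 22.9 ± 0.766 CPM in mutant vehicle (log2 fold change 0.26 ± 0.072, edgeR adjusted p = 0.16, n = 3). Psme1, its partner, was at 0.14 ± 0.12 (edgeR adjusted p = 0.55), and Psmb10 was at 22.1 ± 1.39 and 20.3 ± 1.66 CPM in control and mutant vehicle.

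Among the 19 regulators and interferon signalling genes, all tested, medians were 0.017 for genotype under vehicle and -0.050 for THC in mutants. Ifnar2, a chain of the type I interferon receptor, was at 20.4 ± 0.683 CPM in control vehicle, 22.9 ± 0.684 with THC in controls, 25.4 ± 0.695 for mutant vehicle and 22.9 ± 0.793 CPM in mutant THC. Its range in mutant vehicle lay above those of the other groups, and its log2 fold change for genotype under vehicle was 0.31 ± 0.055 (edgeR adjusted p = 0.16). Nfkb1, a subunit of NF-kB, was at 0.14 ± 0.058 (edgeR adjusted p = 0.24). Irf1, an activator of class I genes, was at -0.39 ± 0.13 for THC in mutants (edgeR adjusted p = 0.81). Of the 7 interferon ligands listed, 6 were at 0 in all 12 libraries, and Ifng had 1 count in 1 library. Interferon genes outside this list were not examined. A count of 0 allows up to 3 counts, which is 0.0725 to 0.0905 CPM depending on the library and covers counting error only.

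Of 29 interferon-induced genes outside the pathway 28 were tested. For genotype under vehicle 26 were above 0 (48.9% of all genes), with a median of 0.35. Of these, 12 had an unadjusted p under 0.05, against 11.2% of all genes that were higher at that level. The immunity-related GTPase Irgm2 was at 3.48 ± 0.207 CPM in control vehicle and 5.54 ± 0.112 CPM in mutant vehicle, and Trim30a, an interferon-induced ubiquitin ligase family member, at 2.19 ± 0.134 and 3.92 ± 0.427 CPM (edgeR adjusted p = 0.16 each, n = 3). For THC in mutants 26 were below 0 (52.5% of all genes), with a median of -0.33. The guanylate-binding protein Gbp2 was at 6.86 ± 0.138 CPM in mutant vehicle and 4.89 ± 0.381 CPM in mutant THC, and the GTPase Iigp1 at 4.48 ± 0.255 and 2.91 ± 0.483 CPM (edgeR adjusted p = 0.81 each, n = 3). In controls under THC the median was 0.14, and for genotype under THC it was 0.052. The median of the interaction was -0.50, with Iigp1 at -0.97 ± 0.23 and Gbp2 at -0.64 ± 0.16 (edgeR adjusted p = 0.54 each).

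Class I receptors were near the limit of detection, with 2 of the 8 listed genes in the table tested. The inhibitory receptor Pirb was at 0.386 ± 0.202 CPM in control vehicle, 0.494 ± 0.313 in mutant vehicle and 0.211 ± 0.0217 CPM in mutant THC.

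**Figure D5:**
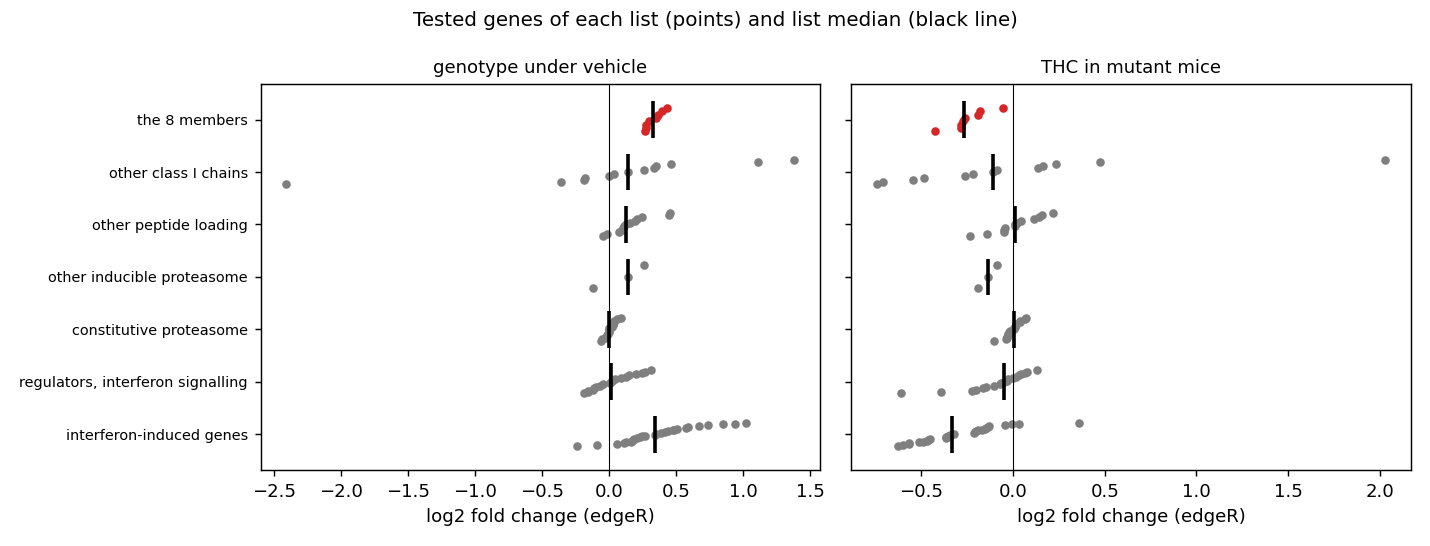
Log2 fold change of each tested gene (points) in the 8 genes and 6 pathway lists, with each list's median as a black line, for genotype under vehicle (left) and THC in mutants (right). The 8 genes and the interferon-induced genes have medians of 0.32 and 0.35 on the left, while the 17 constitutive proteasome genes are near 0.

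The mean log2 CPM of the 8 genes was 3.35, 3.24 and 3.23 in control vehicle, 3.38, 3.50 and 3.36 for control THC, 3.64, 3.56 and 3.59 in mutant vehicle, and 3.46, 3.35 and 3.26 in mutant THC. Mutant vehicle lay above every other library on this mean. Among 14049 genes at 1 CPM or more outside the 8, those most like this mean over the 12 libraries included H2-Eb1 (Pearson r = 0.97), Tgfbi (0.96), H2-Aa (0.96) and Mxra8 (0.94). Over deviations from the group means the same r values were 0.88, 0.84, 0.82 and 0.78. The libraries share tissue content and depth, so these are descriptions. The MHC class II chain H2-Aa was at 1.06 ± 0.111 CPM in control vehicle, 1.85 ± 0.739 with THC in controls, 3.51 ± 1.04 for mutant vehicle and 1.32 ± 0.351 CPM in mutant THC.

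The 8 genes differed in how closely they followed each other over the libraries. H2-K1 and B2m had a Pearson r of 0.86 and H2-K1 and Tapbp of 0.86, while H2-D1 and Tap1 had 0.081 and Psmb8 and Psmb9 had 0.16. Over deviations from the group means these r values were 0.58, 0.69, -0.34 and -0.22 in the same order. Low counts and shared reads limit the values of Psmb9 and H2-D1.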

How the data were processed

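RNA of 12 hippocampal libraries was analysed from 1 table of expected counts per gene that the authors deposited, unscaled for depth or length. Per the file headers the values are RSEM output on RefSeq transcripts. Tools listed in the submitters' processing notes are RSEM 1.2.21, Bowtie2 2.2.2, edgeR 3.10.2, CASAVA 1.8.4 and FastQC, with the build mm10. RSEM splits ambiguous reads between genes, and its strand setting is not stated in those sources. Columns were matched to samples by their descriptions and grouped by title, with 0 left over. A symbol was found for 23011 of 23382 accessions in RefSeq and for 129 through GENCODE, while 7 held several symbols and 235 had none.

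Expected counts were rounded, filtered with filterByExpr (15802 genes kept) and scaled by TMM (factors 0.989 to 1.01). One quasi-likelihood model of edgeR 4.0.16 (robust, R 4.3.3) held 4 group means over 12 libraries, with 8 residual degrees of freedom and no covariate. P-values were adjusted over all genes by Benjamini-Hochberg at 0.05, and SE came from the F statistic. Alternatives used DESeq2 1.42.0, limma-voom (limma 3.58.1), other scaling and filters, fewer groups and left-out libraries. The comparisons by Ttr class were chosen after seeing the data. Levels per kilobase used transcript lengths of GENCODE, and log2 CPM for means over genes used a prior count of 2.

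Besides the 8 genes, each list names in each comparison the genes past the threshold or, with none, the 2 with the smallest p-values at 1 CPM or more, and examples are drawn from these. The 5 most like genes have the highest Pearson r with the mean of the 8, and 1 of them is not reported here. Genes outside this rule (Psmb5, Psmb6, Psmb7, Psmb10, Pirb, Lilrb4a, Ifng and cell type markers) were named for their role, and H2-Q4 for its level. Members and lists were chosen with earlier results of these data known. The code was tested on simulated data. The depth of 33165903 to 41389957 counts per library sets the precision given beside low genes.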

Additional observations from a re-analysis of the deposited data

How the results depend on the processing

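No paired analysis was possible because the numbers in the labels do not recur between groups. The limits are 3 libraries per group, a Ttr split that cannot be told apart from genotype under vehicle, shared reads among class I genes and low counts of Psmb9. Of the results for single genes, 837 kept direction and side of the threshold, 4 passed it under another test (H2-K1 and B2m for genotype under vehicle, by DESeq2 and with 2 groups) and 23 turned sign. The cause was not tested.

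The count of genes past the threshold for genotype under vehicle was 1 and became 788 with DESeq2, of which 2 were among the 8 genes, 523 with the 2 vehicle groups alone (2 of the 8), and 0 with limma-voom or with either pair of libraries left out (control THC 2 with mutant THC 3, or mutant vehicle 3 with mutant THC 3). Leaving out 1 library gave 0 to 6. For genotype under THC it was 1 and became 7 with DESeq2, 0 with limma-voom, the 2 groups alone, either pair left out or either Ttr class, and 0 to 2 without 1 library. DESeq2 called 12 genes for THC in controls, 3 for THC in mutants and 34 for the interaction, where edgeR called 0. Leaving out 1 library gave 0 to 3 for THC in mutants and 0 to 10 for the interaction. For THC in controls, the count was 1 without control THC 2 and mutant THC 3, and 1 with low Ttr.

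Medians of the 8 genes that moved by more than the spread of their mean were as follows. Without control THC 2 and mutant THC 3, the medians were 0.076 for THC in controls, 0.019 for genotype under THC and -0.29 for the interaction. Without mutant vehicle 3 and mutant THC 3 the interaction was -0.35. The low-Ttr libraries gave 0.074 for THC in controls and the high-Ttr libraries -0.16 for genotype under THC. Without 1 library, medians ran from 0.076 to 0.18 for THC in controls, -0.29 to -0.20 for THC in mutants, 0.30 to 0.38 for genotype under vehicle, -0.12 to -0.0044 for genotype under THC and -0.49 to -0.35 for the interaction.

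Signs turned for THC in controls at Psmb8 (range without 1 library -0.14 to 0.049) and Tap2 (-0.067 to 0.086), and Tap2 was at -0.067 without control THC 2 and mutant THC 3 and at -0.069 with low Ttr. For THC in mutants H2-D1 ran from -0.19 to 0.073. For genotype under THC, ranges without 1 library were -0.077 to 0.038 for H2-K1, -0.0079 to 0.10 for B2m, -0.22 to 0.025 for Tapbp and -0.24 to 0.066 for Psmb9. Without control THC 2 and mutant THC 3 the values under THC were 0.028 for H2-K1, 0.0063 for H2-D1, 0.0050 for Tap2, 0.052 for Tapbp and 0.023 for Psmb9. Without mutant vehicle 3 and mutant THC 3 Psmb9 was at 0.031. In the low-Ttr libraries Psmb8 was at -0.014 and Psmb9 at 0.11, and in the high-Ttr libraries B2m was at -0.13. The interaction was not run with 2 groups, which cannot give it.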
